A study of Mus musculus with 4 samples.

Results

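The forkhead protein FOXL2 maintains the identity of pregranulosa and granulosa cells, which surround and support the oocytes. Described here are the FOXL2 peaks that lay near protein-coding genes but not at their ends. A peak belonged to this set if its centre was over 1 kb and at most 10 kb from the nearest border of a protein-coding gene, meaning either end of the annotated gene, and over 1 kb from every border of a long noncoding RNA gene. The rule used positions alone and selected 1612 of the 11434 peaks on chromosomes 1 to 19 and X, out of 11438 in all. Of these, 1231 (76.4%, exact 95% interval 74.2 to 78.4%) had their centre inside a protein-coding gene and 381 (23.6%, 21.6 to 25.8%) lay outside, and the inside and outside peaks are described apart. A further 215 peaks at the same distances were left out because of a long noncoding RNA border.

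The binding sites came from ChIP-seq, in which an antibody recovers the DNA fragments that a protein occupies. The 2 FOXL2 ChIP samples were made from ovaries of CD1 mouse embryos at E14.5, labelled XX and freed of the mesonephros, with 80 to 100 ovaries pooled for each ChIP and 4 ug of antibody. The 2 input samples came from the same kind of tissue without the antibody. Whole ovaries hold germ cells, stroma and vessels beside the supporting cells. The deposited values were a single list of peak positions on build mm10, each peak 300 bp wide, with no height and no value per replicate. Depth is therefore unknown, no peak has a replicate error, and the labelled tissue could not be checked against marker genes. Intervals below treat peaks as independent draws and cover counting error only.

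A gene can be transcribed from several start sites. Its annotated border is set by the outermost transcript model, so a start that the cell uses can lie well inside the border. Regulatory proteins also bind enhancers, which lie within introns and in the DNA around genes. Many mammalian promoters lie in stretches rich in CpG, the dinucleotide of C followed by G, which is depleted from most of the genome. Transcript starts and their strand were taken from a RefSeq table of build GRCm38.p6, the assembly that mm10 denotes. It held 21044 starts of 17273 protein-coding genes on these chromosomes, out of 21627 such genes.

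Inner starts with a peak and a border start without a peak are shown first, because starts with and without a peak differed in CpG content as sets. The notch ligand gene Dll1 allows both to be seen within a gene, since its 2 listed starts lay 1109 bp apart and only the inner start had a peak near it. Nr4a1 encodes an orphan nuclear receptor of the immediate early response, Nr3c2 the mineralocorticoid receptor and Npr2 a guanylyl cyclase receptor that acts in granulosa cells to hold oocytes in meiotic arrest. Each sequence gives the 250 bases before the start, in the direction of transcription, with every CpG in capitals.
Dll1 inner start, with a peak, chr17:15375824-15376073, minus strand: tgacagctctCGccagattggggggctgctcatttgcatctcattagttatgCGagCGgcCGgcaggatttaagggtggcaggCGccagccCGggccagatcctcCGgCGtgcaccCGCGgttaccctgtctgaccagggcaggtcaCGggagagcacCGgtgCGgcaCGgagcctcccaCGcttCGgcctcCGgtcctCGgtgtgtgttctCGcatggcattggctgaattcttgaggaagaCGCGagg
Dll1 border start, no peak within 1 kb, chr17:15376933-15377182, minus strand: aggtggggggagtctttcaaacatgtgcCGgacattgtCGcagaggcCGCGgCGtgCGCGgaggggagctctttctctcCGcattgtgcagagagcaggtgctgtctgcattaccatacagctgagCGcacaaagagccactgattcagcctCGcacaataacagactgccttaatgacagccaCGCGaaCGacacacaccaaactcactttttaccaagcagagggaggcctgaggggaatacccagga
Nr4a1 inner start, with a peak, chr15:101266596-101266845, plus strand: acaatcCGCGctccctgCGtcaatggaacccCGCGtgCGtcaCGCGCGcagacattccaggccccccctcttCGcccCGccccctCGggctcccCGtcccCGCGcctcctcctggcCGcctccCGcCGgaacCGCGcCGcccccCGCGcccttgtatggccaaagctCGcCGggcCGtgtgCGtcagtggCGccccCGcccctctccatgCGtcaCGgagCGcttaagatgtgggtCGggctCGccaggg
Nr3c2 inner start, with a peak, chr8:76902080-76902329, plus strand: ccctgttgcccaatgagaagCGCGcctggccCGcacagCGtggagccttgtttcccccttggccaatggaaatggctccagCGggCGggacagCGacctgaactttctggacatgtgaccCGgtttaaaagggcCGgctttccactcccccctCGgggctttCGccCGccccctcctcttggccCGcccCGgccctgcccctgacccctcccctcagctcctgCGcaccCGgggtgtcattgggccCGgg
Npr2 inner start, with a peak, chr4:43631685-43631934, plus strand: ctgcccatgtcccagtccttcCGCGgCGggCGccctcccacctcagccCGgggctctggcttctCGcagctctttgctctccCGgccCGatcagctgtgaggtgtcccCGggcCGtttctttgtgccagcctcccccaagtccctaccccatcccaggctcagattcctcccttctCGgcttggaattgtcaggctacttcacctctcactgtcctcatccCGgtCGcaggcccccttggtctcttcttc
The inner Dll1 start had 21 CpG in these 250 bases and its border start had 13. The Nr4a1 start had 34, that of Nr3c2 17 and that of Npr2 13. The Npr2 start, with its nearest peak 303 bp away, thus had no more CpG than the Dll1 border start, which had no peak within 1 kb. The sets compared below hold starts with a peak within 250 bp or with none within 1 kb, so the Npr2 start is in neither set. In the inner Dll1 window the peak, at chr17:15375668-15375967, was centred 6 bp from the start, and the nearest peak to the border start was 1115 bp away. The Nr4a1 peak, at chr15:101266777-101267076, was centred 80 bp after the start. The Nr3c2 peak, at chr8:76902015-76902314, was centred 166 bp before it. The nearer of 2 Npr2 peaks, at chr4:43631483-43631782, was centred 303 bp before it.

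Close to 1 in 2 inside peaks lay within 1 kb of a listed start. Of the 1231 inside peaks, 620 (50.4%, exact 95% interval 47.5 to 53.2%) had their centre within 1 kb of a listed start, 352 (28.6%) within 250 bp and 147 (11.9%) within 100 bp. In all 620 cases the start belonged to a gene that held the peak. The rule forces this, since a start of any other gene would bring a border of that gene within 1 kb of the peak. Only 1002 of the inside peaks lay in a gene that the table covers, and among these the share within 1 kb of a start was 61.9% (58.8 to 64.9%). Sequence within 1 kb of a listed start made up 1.90% of the inside sequence 1 to 10 kb from borders. Its peak density was 132 per Mb (exact Poisson 95% interval 122 to 143), against 2.52 per Mb (2.33 to 2.73) in the other 98.1%. For comparison, sequence within 1 kb of either end of a gene held 92.5 peaks per Mb.

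Since the rule removed peaks within 1 kb of a border, it also removed most peaks at border starts. For 517 of the 620 peaks (83.4%) the nearest start lay over 1 kb from every protein-coding border. In 396 of those 517 cases (76.6%, exact 95% interval 72.7 to 80.2%) the gene had no listed start within 1 kb of a border. Of the 620 peaks, 474 (76.5%) were centred after the start in the direction of transcription. The rule favours this for starts near a border, where positions upstream of the start are removed. A set chosen after the data were seen held the 304 peaks whose start was 2 to 9 kb from every protein-coding border. There the limits to these borders remove neither side, but peaks near a long noncoding RNA border were still left out. Whether that removed more peaks on 1 side of the start was not tested. Among the 304 peaks, 217 (71.4%, 65.9 to 76.4%) were centred after the start. The median position was 145 bp after the start for all 620 and 120 bp for these 304. The first 100 bp after the start held 111 of the 620 centres and the 100 bp before it held 35, against 54 and 17 for the 304.

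**Figure D1:**
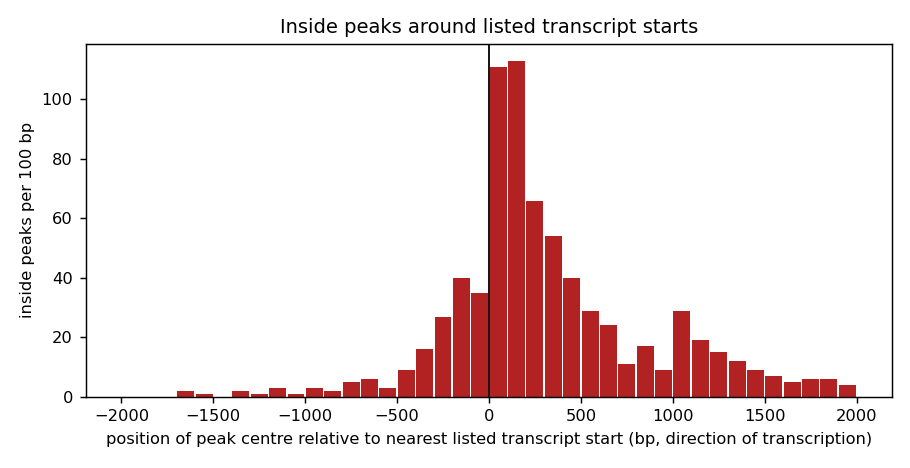
Number of inside peaks per 100 bp (vertical axis) by the position of the peak centre relative to the nearest listed transcript start (horizontal axis, bp, positive in the direction of transcription, vertical line at the start). The bars are highest in the first 200 bp after the start, with 111 and 113 peaks, and the small rise from 1000 bp on, with 29 peaks in the first 100 bp, is where the limit of 1 kb from the border begins to admit peaks of starts that lie at a border.

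The density of inside peaks declined with distance from the border, less at starts than elsewhere. Inside peaks as a whole fell from 15.3 per Mb at 1 to 2 kb to 1.93 per Mb at 9 to 10 kb, a ratio of 7.96 (exact 95% interval 5.75 to 11.3). Within 1 kb of a listed start the density was 152 per Mb (136 to 170) at 1 to 2 kb, 118 per Mb (105 to 132) over 2 to 10 kb and 94.7 per Mb (51.8 to 159) at 9 to 10 kb. Away from listed starts it went from 7.57 per Mb (6.69 to 8.54) at 1 to 2 kb to 1.31 per Mb (0.919 to 1.80) at 4 to 5 kb and 1.24 per Mb (0.805 to 1.84) at 9 to 10 kb. Peaks away from listed starts include all those in genes that the table does not cover, so some may lie at starts that were not used here. Peaks over 10 kb inside genes, near starts or not, had a density of 1.47 per Mb (1.38 to 1.56), which lies within the intervals of each 1 kb step from 4 kb on. The share of peaks near a listed start was 53.3% at 1 to 2 kb and 47.9% from 2 to 10 kb, against 21.1% (18.7 to 23.7%) for peaks over 10 kb inside genes and 78.3% for peaks within 1 kb of a border.

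**Figure D2:**
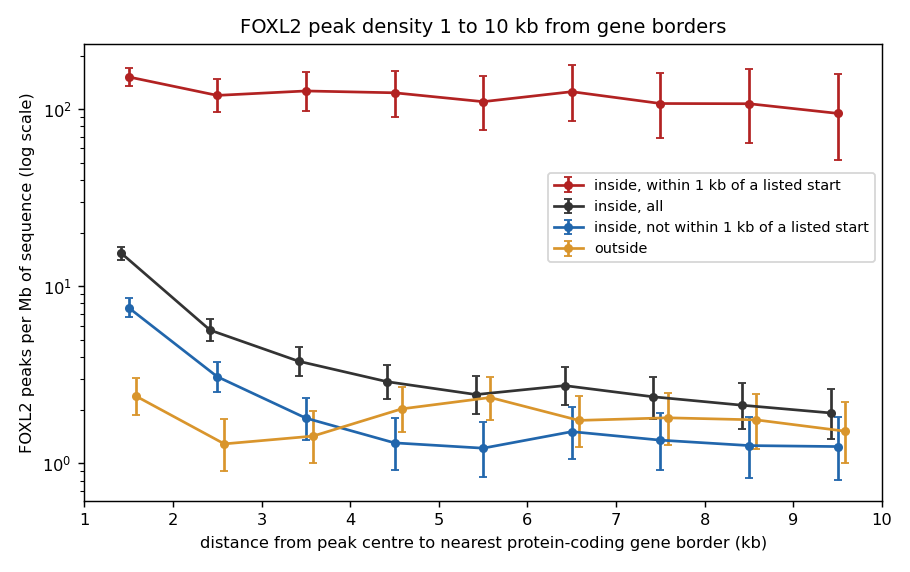
FOXL2 peaks per Mb of sequence (vertical axis, log scale) by distance from the peak centre to the nearest protein-coding border (horizontal axis, kb), with points for each 1 kb step and bars for exact Poisson 95% intervals. Peaks near listed starts stay between 94.7 and 152 per Mb, the other inside peaks drop from 7.57 to 1.24 per Mb, and outside peaks range from 1.29 to 2.40 per Mb.

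Inside peaks were denser toward the 5′ end of genes. Where strand was known, 794 inside peaks had the 5′ end of a gene as their nearest border and 204 the 3′ end, with 8.12 (exact Poisson 95% interval 7.57 to 8.71) and 2.06 (1.79 to 2.37) per Mb. Without the peaks near listed starts the densities were 2.40 (2.09 to 2.73) and 1.61 (1.37 to 1.88) per Mb. The intervals of the 5′ and 3′ ends did not overlap in either case. For the 233 inside peaks whose nearest gene is not in the table the side is unknown.

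Seen from the starts, those inside genes were occupied somewhat less often than those at borders. Of 2391 listed starts between 1 and 10 kb from every border, 30.6% had a peak within 1 kb, against 39.6% of the 17163 starts at borders and 283 of 1490 deeper starts. In 741 genes with both a border start and an inner start, a peak lay near the border start in 257 (34.7%) and near the inner start in 169 (22.8%). Peaks were near the border start alone in 172 of these genes, near the inner start alone in 84, near both in 85 and near neither in 400. The inner start had a peak in 33.1% of genes with an occupied border start (exact 95% interval 27.4 to 39.2%) and in 17.4% of the rest (14.1 to 21.0%). Part of this difference is built in, since a peak that lies between starts less than 2 kb apart counts for both, and only 45 of the 85 genes had at least 2 peaks there. In 1224 genes whose listed starts were all away from the border, 445 (36.4%) had a peak at an inner start.

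Occupied starts were rich in CpG, inside genes as at borders. In the 300 bp window of each start (250 bases before and 50 after), 363 inner starts with a peak within 250 bp had a median of 24 CpG (quartiles 17 and 31). The 1654 inner starts with no peak within 1 kb had a median of 6 (quartiles 3 and 14). Border starts gave 24 with a peak and 6 without. A window with at least 15 CpG was found at 84.8% of occupied and 22.9% of unoccupied inner starts, and the median GC content was 64.0% and 53.0%. Several windows can belong to a gene, so these are not independent draws.

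**Figure D3:**
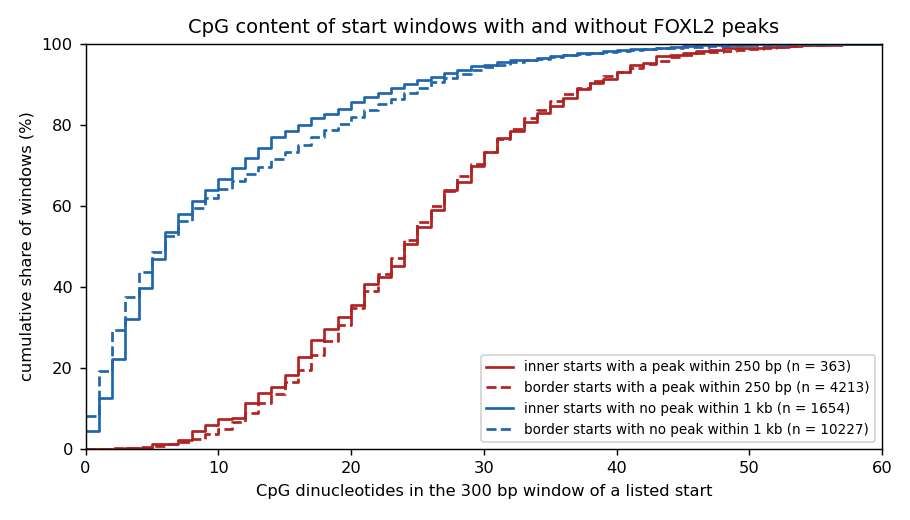
Cumulative share of start windows in % (vertical axis) by the number of CpG dinucleotides in the 300 bp window (horizontal axis), for starts 1 to 10 kb inside borders (solid lines) and starts within 1 kb of a border (dashed lines). Starts with a FOXL2 peak (red, median 24 for both) lie to the right of starts without (blue, median 6 for both), and the solid and dashed lines of a colour run close together.

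The share of windows with the forkhead motif differed between occupied and unoccupied inner starts by less than its interval. GTAAACA, searched on both strands, was found in 3.03% of the 363 occupied windows (exact 95% interval 1.52 to 5.36%), in 2.72% of the 1654 unoccupied ones and in 3.04% of all 20885 start windows. The shorter TAAACA, which also lies within GTAAACA, was in 9.09% (6.34 to 12.5%), 12.1% and 11.5%. For the NRF1 motif GCGCATGC, common in CpG-rich promoters, the shares were 4.96% (2.96 to 7.72%), 1.75% (1.18 to 2.51%) and 3.56%. The GATA motif AGATAA was in 6.61% (4.28 to 9.68%), 12.6% and 9.63%, and the RUNX motif TGTGGT in 11.6% (8.47 to 15.3%), 17.7% (15.8 to 19.6%) and 14.7%. The nuclear receptor NR5A1, a main regulator of gonadal somatic cells, is matched by CAAGGTCA, which was in 2.20% (0.956 to 4.30%), 1.69% and 1.28%. The CCAAT box was in 30.6% (25.9 to 35.6%), 35.4% and 38.3%, and the AP-1 motif TGANTCA in 6.34% (4.06 to 9.36%), 8.16% and 7.01%. CTTTGAT of the TCF/LEF factors was in 1.38% (0.449 to 3.18%), 2.84% and 3.24%, and AACAATG of the SOX factors in 1.93% (0.779 to 3.93%), 3.20% and 3.11%. Occupied and unoccupied inner windows differed in median GC content (64.0% and 53.0%), and no share was compared between windows of like base content. Whether any motif difference goes beyond base content was not tested. These windows end 50 bp after the start, so many occupied ones cover only part of the peak and some cover none of it. At Axin2, for example, the 300 bp peak was centred 215 bp after the start and shared no base with the window. The median centre of the 620 inside peaks near a listed start lay 145 bp after it. Sequence of the other peaks was not used here.

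Outside genes the density over 1 to 10 kb was lower than inside them, and it fell with distance beyond 10 kb. The rule leaves no outside sequence within 1 kb of a listed start, so the 2 sides are not alike. Away from listed starts the inside density was 2.52 per Mb, which includes genes that the start table does not cover. It was 4.55 per Mb where the nearest gene is not in the table. Toward the 5′ and 3′ ends of covered genes it was 2.40 and 1.61 per Mb. The steps were not split in this way. With all genes together, the inside density away from listed starts was above the outside density in each step up to 4 kb. From 4 kb on it was below it, as with 1.31 against 2.03 per Mb at 4 to 5 kb. The intervals of those farther steps overlapped, except at 5 to 6 kb. The 381 outside peaks had a density of 1.83 per Mb (exact Poisson 95% interval 1.65 to 2.02), against 1.32 per Mb (1.23 to 1.42) at 10 to 100 kb outside genes and 0.382 per Mb beyond 100 kb. Their density was 2.40 per Mb (1.88 to 3.02) at 1 to 2 kb, 1.29 per Mb (0.902 to 1.78) at 2 to 3 kb, 2.35 per Mb (1.76 to 3.08) at 5 to 6 kb and 1.52 per Mb (1.0 to 2.21) at 9 to 10 kb. The ratio between the nearest and the farthest step was 1.58 (1.0 to 2.56), so the decline seen inside genes was not resolved outside them. The median distance to the border was 4970 bp outside, against 2215 bp inside. Where strand was known, 140 outside peaks lay before the 5′ end of their nearest gene (47.8%, exact 95% interval 41.9 to 53.7%) and 153 beyond the 3′ end. Their densities, 1.60 (1.34 to 1.89) and 1.95 (1.66 to 2.29) per Mb, had overlapping intervals.

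Peaks outside genes went with a border peak about as often as genes in general have one, and inside peaks less often. A peak within 1 kb of either border was present in 35.7% of all 21627 protein-coding genes. Counted by peak, the nearest gene had a border peak for 39.9% of outside peaks (exact 95% interval 34.9 to 45.0%) and 23.2% of inside peaks (20.9 to 25.7%). A gene with several peaks counts more than once in these shares, unlike in the share of all genes. Inside peaks near a listed start had 16.6% (13.8 to 19.8%) and the other inside peaks 30.0% (26.3 to 33.8%). Many of the former lay in genes without a border start: for 396 of 517 peaks near a start away from borders, the gene had no listed start within 1 kb of a border. Another peak of any class lay within 1 kb of 12.6% of inside peaks and 5.51% of outside peaks. Within 10 kb the shares were 32.1% (29.5 to 34.8%) and 36.5% (31.6 to 41.5%). For peaks within 1 kb of a border they were 12.6% within 1 kb, as for inside peaks, and 22.8% (21.9 to 23.8%) within 10 kb. The share within 10 kb was 10.2% (8.47 to 12.2%) for peaks over 10 kb inside genes and 6.81% (5.11 to 8.86%) for those 10 to 100 kb outside. The rule itself sets nearness to a border, where most peaks of the list lie.

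A small class of outside peaks lay at transfer RNA genes. RNA polymerase III transcribes these short genes, which often stand in clusters. Of the 381 outside peaks, 17 (4.46%, exact 95% interval 2.62 to 7.05%) were centred within 1 kb of a tRNA gene border, at 12 to 645 bp. The outside sequence at this distance from tRNA genes came to 0.170 Mb, which gives 100.1 peaks per Mb (58.3 to 160). Inside genes there were 3 of 1231 peaks, in 0.0242 Mb, so the density of 124 per Mb (25.6 to 363) did not differ beyond its interval. Among them were peaks 12 bp from n-THgtg3 near Shf, 52 bp from n-TDgtc12 near Zfp184 and 97 bp from n-TSgct3 near Borcs6. Chromosome 13 alone held 6, from the peak near Trim27 to the peak near Btn1a1. Across all peak classes, 85 of 408 tRNA genes (20.8%) had a peak within 1 kb.

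MicroRNA genes were within 1 kb of 10 of 1231 inside peaks (0.812%) and 6 of 381 outside peaks (1.57%). Pseudogenes were that near to 9 outside peaks (2.36%). No density near microRNA genes and no share over all of them was computed, so only positions are described. A microRNA is a short RNA that represses messenger RNAs matched by its seed, bases 2 to 8. Mature RNAs of 2 of these genes, chosen after their positions were seen as members of well-studied families, are given with the seed in capitals.
let-7i-5p, chr10:122985698-122985719, minus strand: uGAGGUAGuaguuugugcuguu
miR-34b-5p, chr9:51103610-51103632, minus strand: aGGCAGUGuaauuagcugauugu
miR-34b-3p, chr9:51103574-51103595, minus strand: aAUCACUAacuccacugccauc
Let-7i belongs to the let-7 family, which is tied to cell differentiation, and its gene had 2 peaks, 11 and 866 bp from its border and 6409 and 5470 bp outside Mon2. The peak 11 bp away was at chr10:122985502-122985801. Mir34b, of a family induced by p53, had a peak 21 bp from its border, at chr9:51103475-51103774, which was also 1477 bp inside Btg4. The seeds of let-7i and of both miR-34b arms differ. The closest peak to any microRNA gene lay 2 bp from the border of Gm23450, which encodes miR-935, 1198 bp inside Cacng8. Mir760 had a peak at 66 bp, the same peak that lay 487 bp from n-TRtct2. Mir7655 had 2 peaks, at 98 and 863 bp, both inside Mllt10.

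Near genes of the gonad, these peaks were found at regulators of both the ovarian and the shared early programme. A gene was counted when it owned the border nearest to a peak of the set. That held for 1491 protein-coding genes (6.89%), 1158 with an inside peak (5.35%) and 366 with an outside peak (1.69%). Longer genes offer more sequence, and the share was 3.22% below 10 kb, 7.71% from 10 to 50 kb and 11.2% above 50 kb. In the pregranulosa list 6 of 20 genes (30.0%) were counted, 4 with inside and 2 with outside peaks. In the early gonad list, genes needed in either sex, the count was 7 of 22 (31.8%), of which 5 had outside peaks, and for later granulosa genes 6 of 24. Sertoli genes, of the supporting cells of the testis, gave 3 of 25 (12.0%). The median gene length was 16.3 kb in the pregranulosa, 28.1 kb in the early gonad, 42.9 kb in the later granulosa and 13.1 kb in the Sertoli list. With a lower limit of 2 kb the pregranulosa and later granulosa lists had 3 genes each and the Sertoli list 1, and with an upper limit of 5 kb the early gonad list had 3. All lists were drawn up with earlier results of these data known, so the counts are descriptions.

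**Figure D4:**
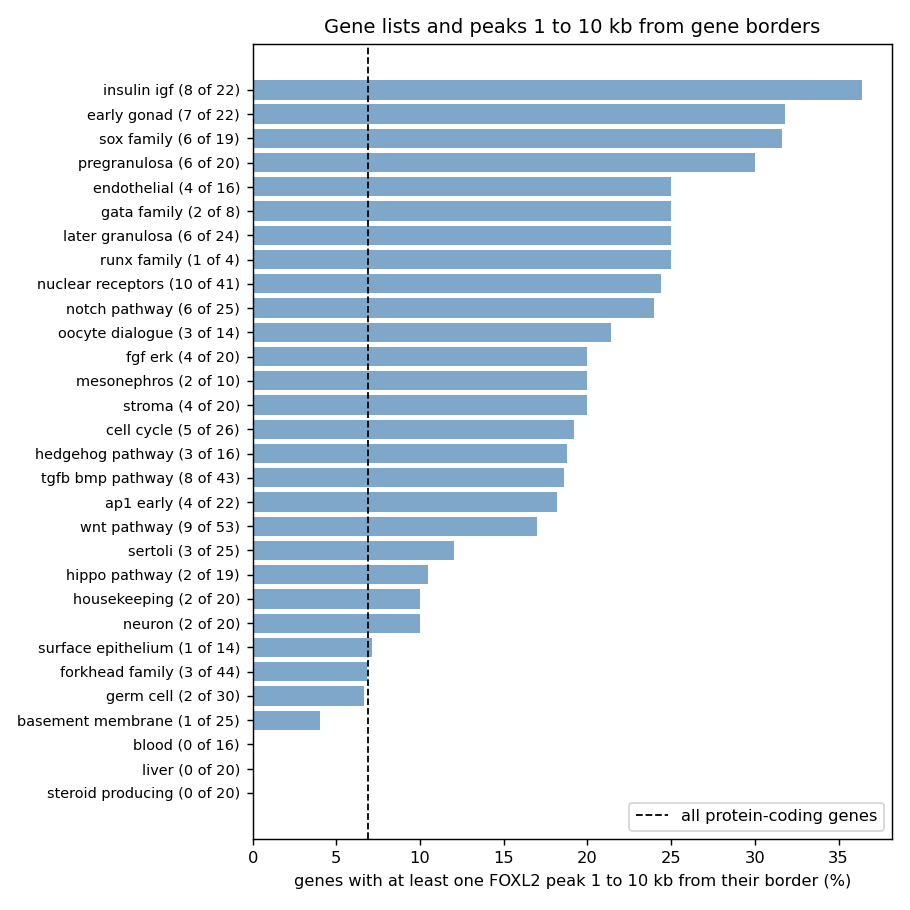
Share of the genes of each list that own the border nearest to at least 1 FOXL2 peak 1 to 10 kb away (horizontal axis, %), with counts beside the list names and the share of all protein-coding genes (6.89%) as a dashed line. Insulin and IGF genes (8 of 22) stand highest at this setting but fall to 4 of 22 with distances from the nearer peak edge, and the steroid-producing, liver and blood lists have no such gene.

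Of the 6 pregranulosa genes counted, 4 are also in the WNT list, and 2 of those had a peak at a listed start. How many of all 20 pregranulosa genes are WNT genes is not given here, so the 4 may only reflect the make-up of the list. The WNT list itself gave 9 of 53 (17.0%). WNT signalling through beta-catenin drives ovarian development and opposes the testicular pathway. Axin2, a feedback inhibitor that WNT signalling induces, had a peak at chr11:108920415-108920714, which lay 2736 bp inside the gene border and 215 bp after its only listed start. Lef1, a DNA-binding partner of beta-catenin, had a peak at chr3:131112244-131112543, 2096 bp inside the border and 398 bp before 1 of its 4 listed starts. Sp5, a WNT target, had a peak 1319 bp inside its 3′ end and 1484 bp after its only listed start. The peak of Rspo1, whose product amplifies WNT signals, lay 1383 bp beyond the 3′ end, at chr4:125010336-125010635. Cdkn1b, a cell cycle inhibitor of arrested supporting cells, had a peak 1928 bp beyond its 3′ end and a border peak at 287 bp. The Runx1 peak of this set, at chr16:92605755-92606054, was 4438 bp inside the 3′ end and 91425 bp from the nearest listed start. So the 4 inside peaks of this list comprised 2 within 1 kb of a listed start and 2 with the 3′ end as nearest border, of which that of Sp5 was also 1484 bp from a start.

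The early gonad genes showed mostly outside peaks. Osr1 had a peak 3378 bp outside and a border peak at 259 bp. For Wt1, which encodes a zinc finger factor needed for gonad formation, the peak was at 3450 bp, and no peak lay nearer to a border of the gene. Lhx2 had a peak 9683 bp beyond its 3′ end, and Igf1r had a peak 1073 bp before its 5′ end together with a border peak at 238 bp. Lhx9, a LIM homeobox factor, had a peak 7220 bp inside the border that lay 825 bp after its listed start. The peak counted for Six4 was 9757 bp outside that gene, before its 5′ end, and counts as an inside peak because it lay in Mnat1, 71 bp from a start of that gene.

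In the later granulosa list all 7 peaks lay within 2 kb of a listed start. Inhba, which encodes an activin subunit, had a peak 7766 bp inside the border but only 171 bp after its listed start, at chr13:16011873-16012172. Npr2 had peaks 303 bp before and 385 bp after its start, 688 bp apart. Gja1, the main gap junction protein of granulosa cells, had a peak 1432 bp after its start, and Pgr, the progesterone receptor gene, had a peak 1644 bp after a listed start. Outside genes, Bmpr2, a BMP receptor, had a peak 1324 bp before its 5′ end and a border peak at 503 bp. Foxo3, a forkhead regulator of follicle activation, had its nearest peak 1281 bp before its 5′ end. From the separate list of oocyte dialogue genes, Gdf9, an oocyte signal to granulosa cells, had a peak 4211 bp outside, on a side that is unknown.

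Sertoli genes with such peaks were those of FGF and ERBB signalling. Fgf9, a testis-determining growth factor, had a peak 5660 bp inside the border and 3645 bp after the listed start. Its receptor gene Fgfr2 had a peak 1017 bp inside the 5′ end, close to the limit of 1 kb. Erbb4 had a peak 958 bp after its listed start. No other gene of the 25 in the Sertoli list was counted, and neither was any of the 20 steroid-producing cell genes, the 20 liver genes or the 16 blood genes.

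Families of DNA-binding factors were also represented. In the Sox family, 6 of 19 genes (31.6%) were counted: Sox4 with a peak 1680 bp after its start and another 4792 bp before it, Sox12 at 1299 bp after its start, Sox17 at 1185 bp inside, Sox30 with 2 peaks at its inner start, and Sox1 and Sox2 with peaks 3803 and 7331 bp before the 5′ end. Sox2 had a border peak at 857 bp as well. With a lower limit of 2 kb 3 Sox genes were counted. Gata6, a zinc finger factor of gonadal somatic cells, had a peak 2364 bp inside and another 4051 bp outside, and Gata5 had a peak 581 bp after its listed start, so 2 of 8 Gata and FOG genes were counted. Of the 4 Runx family genes only Runx1 was counted. In the forkhead family the share was 6.82%, near that of all genes, with Foxj2, Foxc1 and Foxo3 among 44.

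Of 41 nuclear receptor genes, 10 (24.4%) were counted, and the whole Nr4a group was among them. Nr4a1 had, besides the peak at its start, a peak 7394 bp outside the gene and a border peak at 552 bp. Nr4a2 had a peak 8095 bp inside its 3′ end and a border peak at 340 bp, and Nr4a3 had a peak 2041 bp before its 5′ border. Thra, a thyroid hormone receptor gene, had a peak 1264 bp inside. Rxra, which encodes a partner of many receptors, had a peak 508 bp after a listed start and another at 272 bp from the border.

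The signalling lists had shares above the 6.89% of all genes, and apart from the hedgehog list each had genes with inside and genes with outside peaks. Insulin and IGF genes gave 8 of 22 (36.4%), with a median length of 53.8 kb, but the count was 4 when distances were taken from the nearer peak edge, 3 with a lower limit of 2 kb and 5 with borders of genes of every kind. Igfbp4 had a peak 77 bp after its start and Irs1 a peak 1103 bp after, whereas Irs2 had a peak 6165 bp beyond the 3′ end. TGF-beta and BMP genes gave 8 of 43 (18.6%), and besides Inhba 3 of them had a peak close after a listed start: Bmpr1a at 451 bp, Acvr2b at 484 bp and Tgfb2 at 511 bp. WNT genes gave 9 of 53 (17.0%) and hedgehog genes 3 of 16 (18.8%), among them Gli2 with a peak 5645 bp after its start. Notch genes gave 6 of 25 (24.0%), with 2 peaks at the inner Dll1 start, a peak 360 bp after the Maml1 start, and outside peaks at Hes1 (1297 bp) and Dll4 (2182 bp beyond the 3′ end). FGF and ERK genes gave 4 of 20. Here the feedback inhibitors Dusp6 and Spry2 had their peaks 1542 and 2087 bp before the 5′ end. Hippo genes gave 2 of 19 (10.5%), Yap1 and Amotl2, with a median length of 56.6 kb, and so were below the 11.2% of all genes over 50 kb.

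The remaining lists fell on both sides of the share of all genes. Immediate early genes gave 4 of 22 (18.2%), with Fos 1628 bp before the 5′ end and 8730 bp beyond the 3′ end, and Maff 198 bp after a listed start. Cell cycle genes gave 5 of 26 (19.2%) and housekeeping genes 2 of 20, Actb and Ywhaz. Endothelial genes gave 4 of 16 (Sox17, Erg, Fli1 and Eng), stroma genes 4 of 20 (Pdgfra, Gli2, Maf and Wt1) and mesonephros genes 2 of 10 (Sall1 and Cdh16). Oocyte dialogue genes gave 3 of 14. Germ cell genes gave 2 of 30 (6.67%), Tfap2c and Nanos3. Neuron genes gave 2 of 20, basement membrane genes 1 of 25 (Lama1) and surface epithelium genes 1 of 14 (Wt1). Over all lists, 93 of 600 distinct genes (15.5%) were counted. Of the 63 inside peaks of list genes, 23 (36.5%) were within 1 kb of a listed start.

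Most genes had a single peak of this set, and a few had several. Of the 1491 genes, 1383 had 1 peak, 98 had 2, 7 had 3 and 3 had 4, and 33 had peaks both inside and outside. Linked by steps of at most 10 kb, 1433 peaks stood alone, 80 stretches held 2, 5 held 3 and 1 held 4. The stretch of 4 lay inside Mllt10, which encodes a chromatin protein, at 1344, 1823, 2588 and 9297 bp from the border. The first of these was 776 bp after a listed start and the last 128 bp before another. Skida1, the gene next to Mllt10, had 3 peaks outside, at 2763, 3592 and 4337 bp. Hivep2, a zinc finger gene, had 3 inside, of which the middle peak was 353 bp after its only listed start and the others 1610 bp before and 1041 bp after it.

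Among the other genes with several peaks, some had them on both sides of the border and some on 1 side. Meis1, a TALE homeobox gene, had 2 peaks outside, at 7000 and 7687 bp before the 5′ end, 1 at 5000 bp inside the 5′ end and 1 at 3236 bp inside the 3′ end, and a border peak at 152 bp. Zfp777 had 4 peaks, of which 2 flanked its listed start, 759 bp before and 145 bp after it. Bhlhe40, a helix-loop-helix factor, had 3 outside, at 1127, 1615 and 2115 bp. Ddx6, an RNA helicase gene, had 2 inside and 1 outside. Ntng1 had peaks 256 bp before and 399 bp after its listed start, with the third 2678 bp inside its 3′ end. Prdm13 had 2 peaks inside its 3′ end and 1 peak 3004 bp before the 5′ end. Tfap2a had 3, none within 1 kb of a listed start.

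Across chromosomes the density of these peaks, inside and outside together, ranged on the autosomes from 2.91 per Mb of 1 to 10 kb sequence (chromosome 14) to 4.91 per Mb (chromosome 11), with a median of 3.54. The X chromosome had 52 peaks and 2.27 per Mb (exact Poisson 95% interval 1.70 to 2.98), below all 19 autosomes, and its interval reached above the value of chromosome 14. At the limits of the rule, the inside peaks of Rnf169 (1001 bp) and Mark4 (1002 bp) were included and those of Epm2a (1000 bp) and Galnt16 (999 bp) were not. The outside peaks of Aqp11 (9985 bp) and Actl6a (9950 bp) were included and those of Ceacam15 (10005 bp) and Bnip3 (10037 bp) were not.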

How the data were processed

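FOXL2 ChIP and input were sequenced from fetal mouse ovaries in 2 samples each, grouped by title. The authors deposited a single list of peak positions in bp for the ChIP. Per the submitters' processing notes, Bowtie 1.2, Picard 1.110, bedtools 2.24.0, HOMER 4.9 and build mm10 were used. No source used here gives their roles, the peak threshold or how input was used. Peaks were placed by their centre against RefSeq genes of GRCm38.p6 and against listed starts, none of them on chromosome 18, which held 47 of the 1612 peaks (Python 3.11.15, pandas 2.3.3, scipy 1.17.1). Densities divide peaks by the sequence of each class between the first and last gene of each chromosome, measured at every 10 bp, with exact Poisson intervals. Shares have exact Clopper-Pearson intervals at 95%. No test of chance was made. Planned motif searches in whole peaks were replaced by searches in start windows, since no genome was used here. The class rule was checked on simulated peaks. Named genes are those of the gonad, Sox, Gata and Runx lists and up to 4 of each other list. Also named are the 10 genes with most peaks, the 5 stretches with most peaks (ties by shorter stretch) and the peaks at the rule's limits. The set and the lists were chosen with earlier results of these data known. Some genes of the lists are counted but not reported here by name.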

Additional observations from a re-analysis of the deposited data

How the results depend on the processing

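The main counts and shares were computed again with other settings. Start occupancy, CpG content, motif shares, peaks at tRNA and microRNA genes and the densities by gene end were not. With a lower limit of 2 kb the set held 972 peaks of 908 genes and 53 list genes, and 68.3% were inside. The inside share was 83.1% with an upper limit of 5 kb, 71.2% with 20 kb, and 72.4% when the peak had to lie in the gene that owns the border. The share of all 1612 peaks whose nearest gene has a border peak, 27.2%, became 24.2% (5 kb limit), 31.4% (20 kb limit), 20.9% (borders of genes of every kind) and 21.0% (border peak within 500 bp). The share with another peak within 10 kb, 33.1%, became 27.3% (20 kb limit) and 26.4% (genes of every kind), and it was 19.6% within 5 kb and 67.4% within 50 kb. The share of inside peaks near a listed start, 50.4%, became 45.8% (20 kb limit) and 41.5% (genes of every kind). It was 41.5% for starts within 500 bp, 60.3% within 2 kb and 61.9% for genes in the start table, 3 settings chosen after the data were seen. Of the outside peaks with known strand, 61.8% lay upstream of the nearest listed start of any gene, against 47.8% by border. Using the peak edge, ignoring long noncoding RNA borders or using curated genes alone moved none of these beyond their interval or 1.5 times, and the inside density ratio between 1 to 2 kb and 9 to 10 kb was 8.12 in odd and 7.65 in even autosomes. Of 240 list counts under alternatives, 43 moved by over 1.5 times. No paired analysis was possible because the replicates share a single peak list, and neither was leaving out a replicate or a stricter threshold. Depth limits the set in ways that the list does not show.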
